A study of Mus musculus with 9 samples.

Results

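MicroRNA precursors that gave signal above the array's median were followed over the hearts of 3 mouse genotypes. The members were chosen by 2 conditions: the probe set carries 1 annotation symbol that names a microRNA (Mir followed by a digit, or Mirlet7), and its mean RMA log2 value over the 9 hearts is above 5.21, the median of the means of all 33793 probe sets. This selected 109 of the 511 microRNA probe sets with 1 symbol (21.3%), against 58% of all probe sets with 1 symbol. The mean level of a member was therefore used to choose it and is given as a description. The RNA came from hearts snap frozen at 2 months of age. The labels give 3 genotypes with 3 hearts each: wild type, Col4a3-/-, which lacks the alpha 3 chain of type IV collagen and is a model of Alport syndrome, and Col4a3-/-OPN-/-, which also lacks osteopontin, a secreted matrix protein made from Spp1. Col4a3 loss is thus shared by the last 2 genotypes, and osteopontin loss was not studied alone. Strain and sex were not given in the labels. The hearts of a genotype are listed as separate samples, and p-values measure the spread between them.

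MicroRNAs are cut from hairpins in longer transcripts. Drosha with Dgcr8 releases the hairpin in the nucleus, exportin 5 carries it to the cytoplasm, Dicer cuts it to a duplex, and one strand is loaded on an Argonaute protein. The loaded strand finds target messages mainly through its seed, bases 2 to 8 from its 5′ end, and lowers their translation and stability. In the heart, miR-1, miR-133, miR-208 and miR-499 are the classical muscle microRNAs, and miR-143 and miR-145 belong to smooth muscle. The array's probes read precursor or primary transcript sequence, so the 2 arms of a hairpin cannot be told apart, and the labels name a kit for labelling small RNA beside an array for whole transcripts. Signals of different probe sets depend on their probes, so a level here is a brightness and not an amount of RNA.

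The sequences below, from RefSeq on GRCm38.p6, are of members named in the results that had an entry there. The array does not tell the arms of a hairpin apart, so no result is of a single mature form. Of the 109 members, 82 matched an entry there (75.2%), under the 80% needed for a comparison of base composition, which is void here. Among those without an entry were Mir449b, Mir505, Mir124a-2 and Mir1946a, which are named below but not shown here. The first set holds 1 mature form of 8 members that had among the smallest p-values in a comparison, with the seed in capitals.
mmu-miR-210-3p: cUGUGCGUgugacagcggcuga
mmu-miR-375-5p: gCGACGAGccccucgcacaaac
mmu-miR-344d-3p: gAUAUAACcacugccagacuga
mmu-miR-34b-5p: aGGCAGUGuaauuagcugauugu
mmu-miR-139-5p: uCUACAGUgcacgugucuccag
mmu-miR-5123: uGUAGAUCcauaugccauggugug
mmu-miR-191-5p: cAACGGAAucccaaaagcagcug
mmu-miR-677-5p: uUCAGUGAugauuagcuucuga
No 2 of the forms shown share a seed. Among the 131 mature forms listed for members there were 125 seeds, and 6 seeds were carried by 2 members each. The next set shows 4 of the 6, with the shared seed in capitals.
mmu-let-7a-5p: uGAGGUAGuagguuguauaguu
mmu-let-7c-5p: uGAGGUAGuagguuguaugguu
mmu-miR-9-5p: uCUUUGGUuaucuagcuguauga
mmu-miR-149-3p: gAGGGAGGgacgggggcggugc
mmu-miR-1943-5p: aAGGGAGGaucugggcaccugga
mmu-miR-3473d: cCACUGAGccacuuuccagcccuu
mmu-miR-674-5p: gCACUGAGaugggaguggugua
The let-7 forms come from Mirlet7a-1 and Mirlet7c-2, and miR-9-5p from both Mir9-1 and Mir9-3. The other pairs join members of different families, miR-149 with miR-1943 and miR-3473d with miR-674.

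The hairpins of 5 members follow because their brightness or structure stood out, with the listed mature form in capitals where there is one.
Mir5099: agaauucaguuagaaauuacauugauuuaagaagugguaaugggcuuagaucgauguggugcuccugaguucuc
Mir692-1: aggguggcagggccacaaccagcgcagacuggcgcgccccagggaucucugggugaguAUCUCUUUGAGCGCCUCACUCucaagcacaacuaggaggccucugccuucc
Mir703: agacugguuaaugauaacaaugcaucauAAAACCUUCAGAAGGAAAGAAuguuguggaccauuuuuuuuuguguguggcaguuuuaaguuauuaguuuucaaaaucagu
Mir1954: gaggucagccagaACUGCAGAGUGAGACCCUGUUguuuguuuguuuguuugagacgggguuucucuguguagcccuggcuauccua
Mir5123: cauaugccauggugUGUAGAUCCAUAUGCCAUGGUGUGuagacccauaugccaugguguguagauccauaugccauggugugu
Mir5099 lies at chr12:36816205-36816278 on the plus strand, and no gene of the reference contains it on that strand. Mir1954 lies at chr2:32652329-32652414 on the plus strand, within Eng, the endothelial receptor endoglin. A run of 20 bases of the Mir1954 hairpin also occurs in the promoter windows of 22 other genes. Mir5123, at chr4:40850056-40850138 on the minus strand within B4galt1, a galactosyltransferase gene, is a tandem repeat: when its hairpin of 83 bases is shifted by 22 against itself, 96.7% of the overlapping bases match.

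Before any comparison, a few facts of the series bear on every result. The targeted gene was dim: Col4a3 read 5.07, 5.31 and 5.52 in the wild type hearts, 5.27, 4.96 and 5.19 in the Col4a3-/- hearts and 5.17, 4.87 and 5.26 in the Col4a3-/-OPN-/- hearts, a mean below the threshold, and the labels are not checked by it. No value of Spp1 was analysed here. Arrays of the wild type correlated at 0.984 to 0.985 over the 13650 tested probe sets, and those of Col4a3-/- at 0.939 to 0.963. Xist, the RNA that silences an X chromosome, was above the mean of 3 Y-linked genes in 0 of 3 wild type, 2 of 3 Col4a3-/- and 1 of 3 Col4a3-/-OPN-/- hearts. Heart muscle markers were bright in every heart, with a mean over 6 genes from 11.32 to 11.76. The atrial markers, also 6 genes, averaged 10.21 to 10.41 in wild type, 8.70 to 9.99 in Col4a3-/- and 9.97 to 10.1 in Col4a3-/-OPN-/-. The 6 smooth muscle markers averaged 8.98 to 9.09, 7.99 to 8.42 and 8.80 to 9.02 in the same order, the Col4a3-/- hearts lying below the others without overlap. Col4a3-/- heart 3 also held signal of liver genes, with a mean over 3 genes of 8.60 against 5.58 to 6.06 in the other 8 hearts. Without this heart the median difference of the members was 0.095 for Col4a3-/- minus wild type and -0.12 for Col4a3-/-OPN-/- minus Col4a3-/-. Col4a3-/- heart 2 was high for 4 brown fat genes, at a mean of 10.41 against 7.57 to 9.09 in the other 8, and Col4a3-/- heart 3 was low for 6 fibroblast genes, at 7.89 against 8.83 to 9.47. Without Col4a3-/- heart 2 the medians were 0.089 and -0.14. The part of the atrial and smooth muscle marker levels and of these single hearts' markers in the microRNA results was not tested beyond these omissions.

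The members were mostly dim. Their highest mean was 11.37 and their median 5.86, and 61 of 109 lay at or below 6, 31 between 6 and 7, 11 between 7 and 8, and 6 above 8. Of all tested probe sets, 21.0% were above 8, against 5.50% of the members. The threshold passed through a dense region: Mir667, Mir328 and Mir877 lay just inside it at 5.22, and Mir425, Mir30d and Mir1931 just outside at 5.20, 5.19 and 5.19. Members near it differ from those outside by less than the range of a typical member within a genotype, whose median was 0.32 in wild type, 0.37 in Col4a3-/- and 0.33 in Col4a3-/-OPN-/-.

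The brightest members were not the classical microRNAs of the heart. Mir449b, of a family known from ciliated airway cells, read 11.40, 11.28 and 11.54 in wild type, 11.23, 11.48 and 11.49 in Col4a3-/- and 11.33, 11.43 and 11.13 in Col4a3-/-OPN-/-. These ranges overlapped in all 3 genotypes. The neighbours of Mir449b, Mir449a and Mir449c, averaged 4.93 and 4.47, both below the threshold. Mir5099 read 11.55, 11.48 and 11.89 in wild type, 10.76, 11.09 and 11.10 in Col4a3-/- and 11.78, 10.84 and 11.68 in Col4a3-/-OPN-/-, so that each Col4a3-/- heart was below each wild type heart. Mir692-1 averaged 9.01, Mir703 8.95, Mir1954 8.79 and Mir1195 8.30. Mir5125, in the splicing factor gene Srrm2, averaged 7.74, Mir1956, in the cap-binding factor gene Eif4e, 7.68, Mir680-2 7.59 and Mir1946a 7.53. Copies of the last pair were dim, at 5.17 for Mir680-1, 5.09 for Mir680-3 and 4.36 for Mir1946b.

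**Figure D1:**
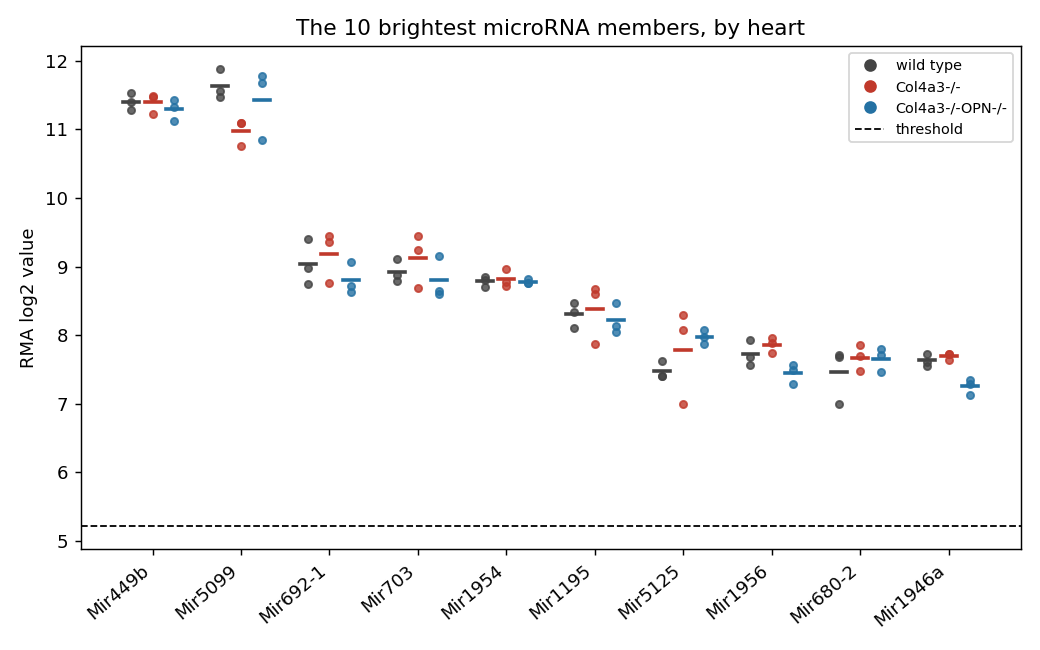
RMA log2 value (vertical axis) of the 10 members with the highest mean, in each heart, with dots coloured by genotype, bars at the genotype mean and the selection threshold of 5.21 as a dashed line. Mir449b and Mir5099 lie between 10.76 and 11.89, and the other 8 lie lower, at up to 9.45.

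The heart's own microRNAs were mostly not among the members. Of 8 muscle microRNA probe sets with 1 symbol, 1 was above the threshold, Mir208a, which lies in an intron of the alpha myosin heavy chain gene Myh6. Mir208a read 5.68, 4.81 and 5.36 in wild type, 5.46, 5.77 and 4.60 in Col4a3-/- and 5.18, 6.22 and 5.32 in Col4a3-/-OPN-/-. All 3 genotypes overlapped, with a range of 1.17 among the Col4a3-/- hearts alone. The fitted Col4a3-/-OPN-/- minus Col4a3-/- difference was 0.29 ± 0.34 (SE), and it was -0.044 without Col4a3-/- heart 3 and -0.028 without Col4a3-/-OPN-/- heart 2. Myh6 itself was at 12.26. Mir133a-1, Mir133b, Mir133a-2, Mir499, Mir1a-1, Mir208b and Mir206 averaged between 4.30 and 4.87. Probe sets that carry both Mir1b and Mir1a-2 averaged 5.80 and 4.39, and were left out because they have several symbols. Mir1a-1hg, a long RNA that hosts Mir1a-1 and is a member by its symbol only, read 5.93, 5.50 and 5.90 in wild type, 5.78, 6.10 and 5.22 in Col4a3-/- and 5.61, 6.07 and 5.91 in Col4a3-/-OPN-/-. Mir99ahg is the other host transcript among the 109, and the remaining 107 are annotated as microRNA genes.

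In the smooth muscle pair, Mir143 was a member and Mir145a, at 5.15, was not. Mir143, which keeps smooth muscle contractile, read 5.59, 5.62 and 5.53 in wild type, 5.90, 5.90 and 5.46 in Col4a3-/- and 5.79, 6.20 and 5.59 in Col4a3-/-OPN-/-. Its ranges overlapped, while the mean over the 6 smooth muscle protein genes was lower without overlap in the Col4a3-/- hearts. Of these genes 5 were lower than in wild type by their fitted difference, and 1 was higher. The fibrosis-related list, which holds the miR-29, miR-200, miR-192, miR-194 and miR-199 groups, had 1 of 11 probe sets with 1 symbol above the threshold, Mir194-1. Its values were 5.99, 5.73 and 6.04 in wild type, 5.99, 6.35 and 5.74 in Col4a3-/- and 5.65, 5.86 and 5.85 in Col4a3-/-OPN-/-, with overlap in each comparison. Mir29a averaged 4.38 and Mir200b 4.91. The probe set shared by Mir29b-2, Mir29c and A330023F24Rik averaged 5.89, and that of Dnm3os, Mir199a-2 and Mir214 averaged 5.48. Both were above the threshold but left out because they have several symbols.

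**Figure D2:**
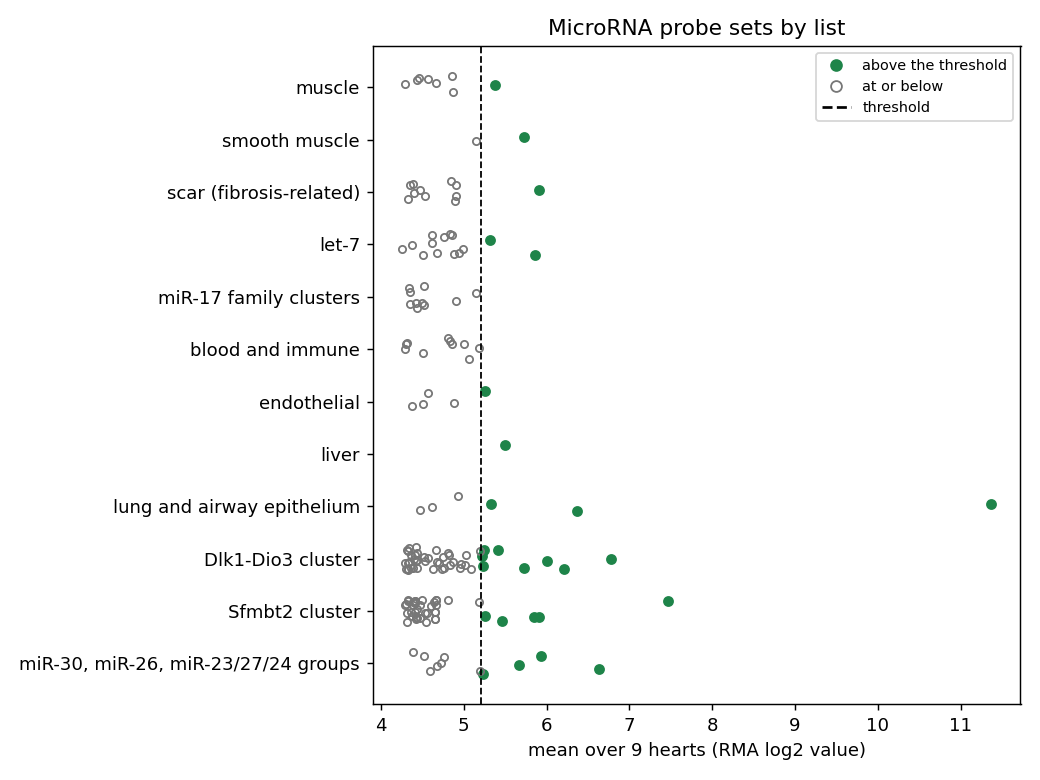
Mean RMA log2 value over 9 hearts (horizontal axis) of the microRNA probe sets in 12 lists, with members as filled dots, others as open dots and the threshold of 5.21 as a dashed line. In the miR-17 and the blood and immune lists no dot is filled, and Mir449b stands alone at 11.37.

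The other lists differed in how many members they held. The let-7 family, which acts against growth programmes, had 2 of 14 probe sets above the threshold. Mirlet7a-1 ranged from 5.60 to 6.27 over the 9 hearts. Mirlet7c-2 read 5.37, 5.54 and 4.78 in wild type, 4.88, 5.06 and 5.20 in Col4a3-/- and 5.96, 6.08 and 4.97 in Col4a3-/-OPN-/-, with 1 of the last 3 hearts as low as the others. None of 10 probe sets of the miR-17 clusters, none of 10 of blood and immune cells and 1 of 5 endothelial ones (Mir196a-1, at 5.26) was a member. The liver microRNA Mir122 was, at 5.50, with values between 5.05 and 5.95. In the airway list 3 of 6 were members (Mir449b, Mir375 and Mir34b). The lung and airway marker list, of Scgb1a1 and surfactant genes, varied far more between hearts than these. Its mean over the 2 probe sets above the threshold was 5.64, 5.12 and 5.22 in wild type hearts. It was 4.84, 9.61 and 4.89 in Col4a3-/- hearts and 7.68, 4.96 and 7.25 in Col4a3-/-OPN-/- hearts. The median over all 5 probe sets of the list was 5.17, below the threshold, so this spread is only of the 2 that passed.

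The imprinted Dlk1-Dio3 region on chromosome 12 had 8 of 47 probe sets above the threshold. Mir673 was its brightest at 6.78, followed by Mir329 at 6.21 and Mir341 at 6.01. The Sfmbt2 intron cluster on chromosome 2, a rodent cluster of many near-identical copies, had 5 of 41, with Mir467c at 7.47. Near-identical copies can share signal, so these members are uncertain as single genes. Of the miR-30, miR-26 and miR-23/27/24 groups 4 of 11 were members. Mir27a and Mir23a, neighbours on chromosome 8, averaged 6.63 and 5.67. Mir23a was among the most variable members within a genotype, with a range of 1.16 in wild type, 1.34 in Col4a3-/- and 1.13 in Col4a3-/-OPN-/-.

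No member passed an adjusted p of 0.05 in any of the 3 comparisons, by limma on all 13650 tested probe sets with Benjamini-Hochberg adjustment. For Col4a3-/- minus wild type 0% of the tested probe sets passed, for Col4a3-/-OPN-/- minus Col4a3-/- 0.0440% (6 probe sets) and for Col4a3-/-OPN-/- minus wild type 0%. In the test of any difference among the genotypes 0.0147% of tested probe sets passed and 0 of 109 members, and 17 members (15.6%) had an unadjusted p under 0.05 against 9.30% of all. The smallest adjusted p among members was 0.496, 0.156 and 0.999 in the 3 comparisons. The 2 comparisons with the Col4a3-/- hearts share those 3 samples, and their values are set side by side and not as support for each other.

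In Col4a3-/- against wild type hearts, members lay slightly higher on average. The median difference was 0.10, with 80 of 109 above 0, beside a median of -0.02 and 45.0% above 0 over all tested probe sets. Among the 73 members within 1 log2 unit of the threshold the median was 0.10 and 30.1% lay below 0. The 5016 tested probe sets of that brightness had 0.0047 and 48.9%. For the 36 brighter members these values were 0.14 and 19.4%, beside -0.04 and 58.6% of 8634 tested probe sets. An unadjusted p under 0.05 was found for 5 members with a higher value (4.59%) against 2.39% of tested probe sets, and for 1 with a lower value (0.917%) against 5.96%. The 2 genotypes did not overlap in 11 members that were higher (10.1%) against 4.58%, and in 2 that were lower (1.83%) against 7.90%. Both directions together made 13 members (11.9%) against 12.5% of tested probe sets. With a heart left out, 2 hearts separate more easily than 3, and the count was larger for members and for all probe sets: 24 (22%, against 19.8%) without wild type heart 1, 25 (22.9%, against 21.1%) without wild type heart 3, and 27 (24.8%, against 30.4%), 23 (21.1%, against 26.5%) and 25 (22.9%, against 21.7%) without Col4a3-/- heart 1, 2 and 3. The 5 members that were higher by unadjusted p became 9 (8.26%, against 5.03%) without Col4a3-/- heart 1 and 8 (7.34%, against 2.32%) without Col4a3-/- heart 3. They fell to 4 (3.67%, against 2.18%) without wild type heart 1. With the Y-linked covariate they fell to 3, and the share of all tested probe sets was not counted there.

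The 5 members with the smallest p in this comparison were Mir505, Mir5099, Mir139, Mir5123 and Mir34b. Mir505, on the X chromosome, read 5.22, 5.04 and 5.31 in wild type and 5.35, 6.01 and 6.21 in Col4a3-/-, and 6.10, 5.45 and 5.53 in Col4a3-/-OPN-/-. Every mutant heart was above every wild type heart, and 1 Col4a3-/- heart was only just above. The difference was 0.67 ± 0.22 (SE), with an unadjusted p of 0.012 and an adjusted p of 0.50. Its wild type mean of 5.19 lies below the threshold, so Mir505 is a member through its higher mutant hearts, and its difference is a description. In all, 14 members had the mean of at least 1 genotype below the threshold. Mir5099, given above, differed by -0.66 ± 0.22, with an unadjusted p of 0.013. In Col4a3-/-OPN-/- 1 heart lay with the Col4a3-/- hearts and the other 2 with the wild type. Mir34b, of the p53-regulated miR-34 family, read 5.16, 5.28 and 5.28 in wild type, 5.43, 5.48 and 5.56 in Col4a3-/- and 5.15, 5.33 and 5.27 in Col4a3-/-OPN-/-. The Col4a3-/- hearts were above all 6 others, by 0.25 ± 0.09 over wild type, with an unadjusted p of 0.017. Mir34c and Mir34a, of the same family, averaged 4.62 and 4.82, both below the threshold.

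Mir139, in an intron of the phosphodiesterase gene Pde2a, read 4.84, 5.48 and 5.37 in wild type, 6.12, 5.39 and 6.08 in Col4a3-/- and 5.15, 5.59 and 5.38 in Col4a3-/-OPN-/-. Of the Col4a3-/- hearts 2 of 3 were above the wild type hearts and 1 was among them. The difference was 0.64 ± 0.22, with an unadjusted p of 0.014. Its host went the other way: Pde2a was at 8.49, 8.96 and 8.64 in wild type, 8.15, 7.83 and 8.27 in Col4a3-/- and 8.64, 8.77 and 8.65 in Col4a3-/-OPN-/-. Each Col4a3-/- heart was below each wild type heart. The Pde2a difference was -0.61 ± 0.16, with an unadjusted p of 0.0029 and an adjusted p of 0.43 in the same limma fit. The tandem repeat Mir5123 read 5.11, 5.45 and 5.54 in wild type, 5.74, 7.40 and 6.29 in Col4a3-/- and 7.03, 5.99 and 6.07 in Col4a3-/-OPN-/-. Every mutant heart was above every wild type heart, and the Col4a3-/- hearts ranged over 1.66. Its difference was 1.11 ± 0.38, with an unadjusted p of 0.014, while its host B4galt1 differed by -0.02.

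In Col4a3-/-OPN-/- against Col4a3-/- hearts, members lay lower on average. The median difference was -0.14, with 76 of 109 below 0, beside a median of 0.04 over all tested probe sets. Lower values with an unadjusted p under 0.05 were found for 22 members (20.2%) against 5.03% of tested probe sets, and higher ones for 3 (2.75%) against 8.58%. Groups did not overlap in 22 members that were lower (20.2%) against 6.48%, and in 3 that were higher (2.75%) against 10.1%. The 25 in both directions (22.9%, against 16.5%) became 40 (36.7%, against 31.0%) without Col4a3-/- heart 2 and 39 (35.8%, against 26.2%) without Col4a3-/-OPN-/- heart 3. The 22 that were lower by unadjusted p became 13 (11.9%, against 3.36%) without Col4a3-/-OPN-/- heart 1. They became 15 with centred arrays, with array weights or with the Y-linked covariate. For these settings the share of all tested probe sets was not counted, so the fall cannot be set against it. The 3 that were higher became 1 (0.917%, against 11.3%) without Col4a3-/- heart 1. The shift was larger among the 36 members more than 1 log2 unit above the threshold: their median was -0.24 and 13 (36.1%) were lower without overlap, against 3.91% of the 8634 tested probe sets of that brightness, whose median was 0.08. Among the 73 dimmer members the median was -0.11, and 9 (12.3%) were lower without overlap, against 10.9% of tested probe sets. The 402 microRNA probe sets below the threshold had a median difference of -0.0021.

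**Figure D3:**
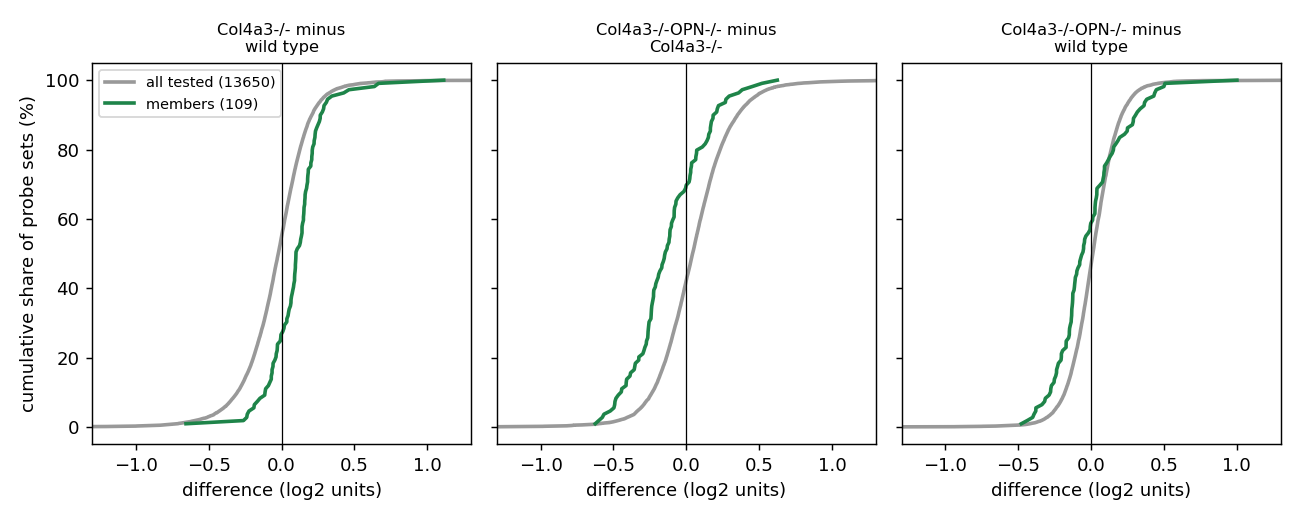
Cumulative share of probe sets (percent, vertical axis) against the fitted difference in log2 units (horizontal axis, cut at 1.3 on both sides) for the 109 members in green and the 13650 tested probe sets in grey, 1 panel per comparison. The green curve lies right of the grey in the first panel (medians 0.10 and -0.02), left of it in the second (-0.14 and 0.04) and crosses it in the third (-0.06 and 0.01).

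Mir124a-2, a copy of the neuronal miR-124, had the smallest p. The other copies were dim, at 4.28 for Mir124a-3 and 4.86 for the probe set that Mir124a-1 shares with Mir124a-1hg and Mir3078. Mir124a-2 read 5.65, 5.62 and 5.53 in wild type, 5.91, 5.73 and 5.85 in Col4a3-/- and 5.15, 5.07 and 5.57 in Col4a3-/-OPN-/-. All Col4a3-/-OPN-/- hearts were below all Col4a3-/- hearts. The difference was -0.57 ± 0.13, with an unadjusted p of 0.0013 and an adjusted p of 0.16. Mir210, the microRNA induced by low oxygen, read 6.95, 6.63 and 7.15 in wild type, 7.33, 7.31 and 7.01 in Col4a3-/- and 6.70, 6.44 and 6.62 in Col4a3-/-OPN-/-. Its 3 Col4a3-/-OPN-/- hearts were below all Col4a3-/- hearts and overlapped the lowest wild type heart. The difference was -0.63 ± 0.16, with an unadjusted p of 0.0029 and an adjusted p of 0.18.

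Mir375, known from islet and airway epithelium, read 6.74, 6.38 and 6.38 in wild type, 6.59, 6.37 and 6.70 in Col4a3-/- and 6.12, 6.06 and 6.01 in Col4a3-/-OPN-/-. The Col4a3-/-OPN-/- hearts were below all 6 others. The difference from Col4a3-/- was -0.49 ± 0.14, with an unadjusted p of 0.0054 and an adjusted p of 0.22. Mir344d-2 read 6.03, 6.19 and 6.49, then 6.47, 6.31 and 6.23, then 5.58, 5.70 and 5.99 in the 3 genotypes in order. Mir1946a read 7.55, 7.61 and 7.73, then 7.73, 7.64 and 7.72, then 7.13, 7.34 and 7.29. Both were lower in all 3 Col4a3-/-OPN-/- hearts than in all 6 others. Their differences from Col4a3-/- were -0.58 ± 0.16 and -0.44 ± 0.12, with adjusted p-values of 0.19 and 0.20. Mir344d-2 stood alone in its family, with Mir344d-1 at 4.46 and Mir344d-3 at 4.39.

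By list, the Dlk1-Dio3 members had a median difference of -0.17. Of these 6 of 8 were below 0, against 42.3% of all tested and 69.7% of all members. Lower with an unadjusted p under 0.05 were 2 of 8, against 5.03% of all tested and 20.2% of all members. Mir673 was lowest at -0.52 ± 0.16 and Mir540 highest at 0.13 ± 0.15. The Col4a3-/- mean of Mir540, 5.12, lies below the threshold, so its difference is a description. The 5 Sfmbt2 members spread from -0.28 (Mir467c) to 0.52 (Mir467e). The 4 members of the miR-30, miR-26 and miR-23/27/24 groups were all above 0, against 57.7% of all tested probe sets. Mir23b was at 0.36 ± 0.22, and none of the 4 had an unadjusted p under 0.05. Mirlet7c-2 was the member with the highest difference, 0.62 ± 0.27, and its fellow Mirlet7a-1 differed by -0.0054, with a sign that turned under several settings. Mirlet7c-2 averaged 5.23 in wild type, 5.05 in Col4a3-/- and 5.67 in Col4a3-/-OPN-/-. It thus passed the threshold mainly through the Col4a3-/-OPN-/- hearts, and its difference is a description. Mir483, in the imprinted growth factor gene Igf2, differed by -0.60 ± 0.21, beside -0.20 ± 0.16 for Igf2.

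**Figure D4:**
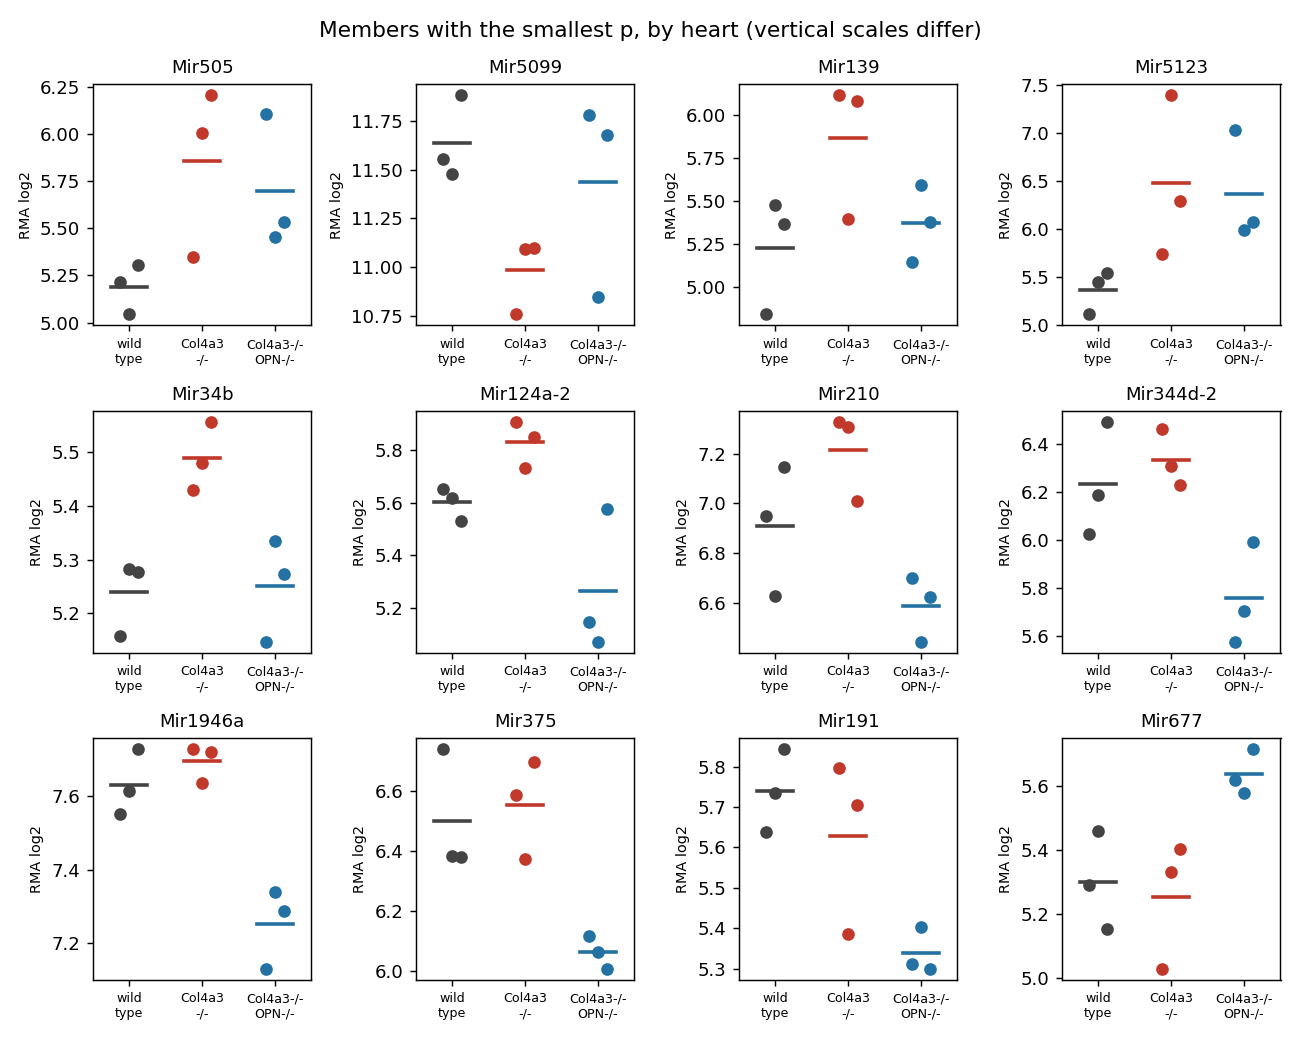
RMA log2 value of each heart (dots; bars are genotype means, and vertical scales differ) for the 12 members with the smallest p-values in the 3 comparisons. Mir375, Mir344d-2 and Mir1946a have their 3 Col4a3-/-OPN-/- dots below the other 6, and Mir677 has them above.

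Against wild type, Col4a3-/-OPN-/- hearts had a median difference of -0.06 over members, 64 of 109 below 0, beside 0.01 over all tested probe sets. The mean difference of members was -0.02. An unadjusted p under 0.05 was reached by 4 members with a higher value (3.67%) against 1.89%, and by 7 with a lower value (6.42%) against 1.79%. Groups did not overlap in 11 members that were higher (10.1%) against 7.55% of tested probe sets, and in 10 that were lower (9.17%) against 5.65%. The 21 in both directions (19.3%, against 13.2%) became 34 (31.2%, against 21.2%) without wild type heart 1. Without that heart the unadjusted counts were 2 higher (1.83%, against 1.26%) and 4 lower (3.67%, against 1.44%). Also 2 were higher (1.83%) without wild type heart 2, against 1.31% of tested probe sets, and without Col4a3-/-OPN-/- heart 1, against 1.1%. Mir191, in Dalrd3, read 5.64, 5.73 and 5.84 in wild type, 5.80, 5.39 and 5.70 in Col4a3-/- and 5.31, 5.40 and 5.30 in Col4a3-/-OPN-/-. It was lower in every Col4a3-/-OPN-/- heart than in every wild type heart, by 0.40 ± 0.12, with an unadjusted p of 0.0065 and an adjusted p of 0.999. A second probe set for Mir191, outside the members, averaged 5.05 and did not show the lower values. It read 4.88, 5.12 and 5.07 in wild type and 5.12, 4.97 and 5.15 in Col4a3-/-OPN-/-, with overlap. Mir677, in the ATP synthase gene Atp5b, read 5.29, 5.46 and 5.15, then 5.03, 5.33 and 5.40, then 5.62, 5.58 and 5.71. It was higher in the Col4a3-/-OPN-/- hearts than in all others, by 0.34 ± 0.12 over wild type, while Atp5b differed by -0.03. Mir375, Mir344d-2 and Mir1946a differed from wild type by -0.44, -0.48 and -0.38, with unadjusted p-values of 0.0103, 0.0107 and 0.0105.

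Member by member medians and heart medians do not give the same order. The median over members of a heart was 5.81 to 5.85 in wild type, 5.92 to 5.99 in Col4a3-/- and 5.90 to 5.97 in Col4a3-/-OPN-/-, which puts the last above wild type, where the median of differences is -0.06. Measured as each heart's median deviation from the members' own means, the values were -0.038, -0.0051 and 0.014 in wild type, 0.04, 0.10 and 0.12 in Col4a3-/- and -0.09, -0.05 and -0.08 in Col4a3-/-OPN-/-. The 3 Col4a3-/-OPN-/- hearts were the lowest and the 3 Col4a3-/- hearts the highest. The arrays' medians over all probe sets had the same order of genotypes. They were 5.20 to 5.22 in wild type, 5.23 to 5.24 in Col4a3-/- and 5.18 to 5.19 in Col4a3-/-OPN-/-.

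**Figure D5:**
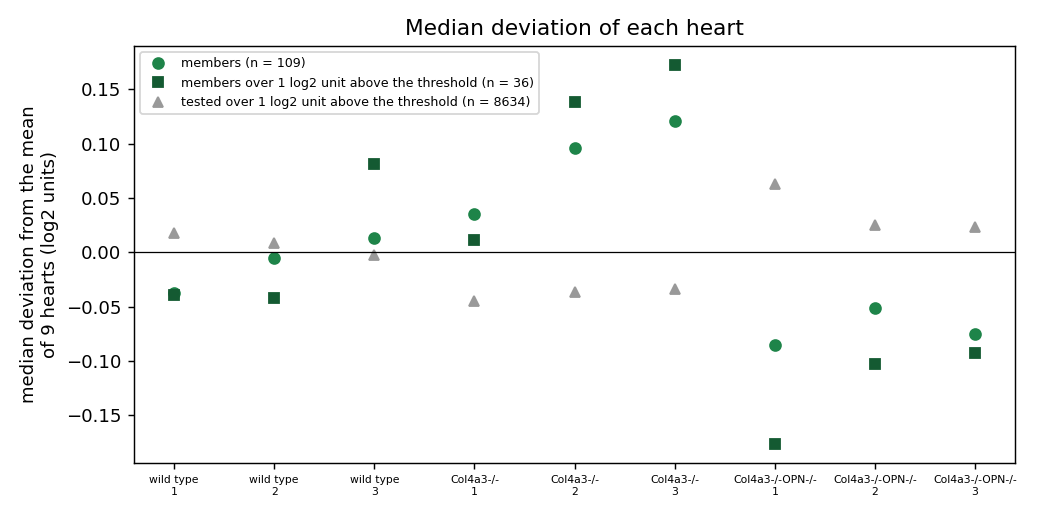
Median deviation (log2 units, vertical axis) of each heart from the 9-heart means of the probe sets, for all 109 members (circles), the 36 brighter members (squares) and the 8634 tested probe sets of that brightness (triangles). Circles are between 0.04 and 0.12 in the Col4a3-/- hearts and between -0.09 and -0.05 in the Col4a3-/-OPN-/- hearts, while triangles are below 0 in the former and above 0 in the latter.

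With the Y-linked signal of each heart as a covariate, the median differences of members were 0.12, -0.13 and -0.06 in the 3 comparisons, and 0 members passed the adjusted p of 0.05. The 7 members on the X chromosome included Mir505, the member with the smallest p in Col4a3-/- against wild type. Its difference there was 0.67, and 0.49 to 0.92 over the alternatives, the Y-linked covariate among them. The other X-linked members differed by -0.07 (Mir1198) to 0.21 (Mir680-2). Of the 82 members with a sequence, 44 lay inside another gene on the same strand. For 36 such pairs the host was tested too, over 35 hosts. The host medians were -0.02, 0.04 and 0.01 in the 3 comparisons, and those of their microRNAs 0.13, -0.11 and 0.0042. Across the 36 pairs, which share arrays, Spearman's rho between host and microRNA difference was -0.007, -0.075 and 0.068.

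The proteins that make and use microRNAs were all but 1 above the threshold: 26 of 27, with Lin28b at 4.62 below it. They include Drosha (7.97), Xpo5 (exportin 5, 7.41), Dicer1 (6.75) and the Argonautes Ago1 to Ago4. None of the 26 passed an adjusted p of 0.05 or an unadjusted p under 0.05 in any comparison. Their median differences were 0.05 for Col4a3-/- minus wild type, 0.11 for Col4a3-/-OPN-/- minus Col4a3-/- and 0.14 for Col4a3-/-OPN-/- minus wild type. Drosha differed by 0.04, 0.09 and 0.13, Dicer1 by 0.16, 0.07 and 0.23, and Ago2, the slicing Argonaute, by -0.14, 0.22 and 0.08. Ago3 had a difference of 0.32 for Col4a3-/-OPN-/- minus wild type.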

How the data were processed

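RNA from 9 hearts was read on a whole-transcript mouse gene array. The deposited values are log2 intensities made by RMA, per the submitters' processing notes; version and settings are not given in the sources used here. Symbols came from the platform annotation: 23521 probe sets had 1 symbol, 1814 had several and 8458 had none, and only the first were used. The 13650 of them above the median of all probe-set means (5.21) were fitted with limma 3.58.1 in R 4.3.3 (1 mean per genotype, all 9 arrays, intensity trend) in 3 comparisons, with Benjamini-Hochberg adjustment over all 13650. The fit was also run on simulated data with independent noise for each probe set. That run does not bear on effects that the probe sets of a heart share. Members and lists were chosen with earlier results of these data known. Named members were the 10 with the highest mean, the 5 with the smallest p in each comparison, those next to the threshold, all of the muscle, smooth muscle and fibrosis lists, and the extremes of other lists. Sequences are from RefSeq (GRCm38.p6). With 3 hearts per genotype, precision is limited by their number. Alternatives are given at the end.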

Additional observations from a re-analysis of the deposited data

How the results depend on the processing

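No member was called in any comparison under any of the alternatives (another normalization, centring, no or stricter filters, all probe sets, other moderation, array weights, a replicate block, a Y-linked covariate, only the arrays compared, and leaving out each heart), and none of the 12 members with the 5 smallest p-values in a comparison changed direction. Of 9 further members whose Col4a3-/-OPN-/- minus Col4a3-/- difference is given, 2 did: Mirlet7a-1, at 0.039 with centring, 0.075 with array weights, 0.12 with the Y-linked covariate and -0.12 to 0.17 with a heart left out, and Mir208a, at -0.044 to 0.54 with a heart left out; the cause was not tested. With the hearts' labelled numbers as a replicate block, 0 members were called, with medians 0.10, -0.14 and -0.06. Deviations of same-numbered hearts from their genotype means correlated at -0.19 to 0.23. The labels do not say what the numbers stand for, and so few hearts cannot decide whether they mark pairs. Renewed quantile normalization gave a median of 0.13 for Col4a3-/- minus wild type. With the stricter filter, the medians were 0.14, -0.24 and -0.11, by construction over 36 brighter members. Centring the arrays gave -0.099 for Col4a3-/-OPN-/- minus Col4a3-/-. Leaving out one heart at a time gave medians of 0.089 to 0.13, -0.18 to -0.11 and -0.068 to -0.027. With 2 hearts in an arm, groups separate more easily: members without overlap numbered 13 to 27, 25 to 40 and 21 to 34, against 13, 25 and 21, while the share of all tested probe sets ranged over 12.5 to 30.4%, 16.5 to 31.0% and 13.2 to 26.5%. Of the differences named for Col4a3-/- minus wild type, the widest ranges over the alternatives were 0.65 to 1.78 for Mir5123, 0.26 to 0.87 for Mir139 and -0.74 to -0.27 for Mir5099. The smallest adjusted p that a named member reached under an alternative, in limma, was 0.081 for Mir124a-2, whose range was 0.081 to 0.44. The stricter filter gave no value for named members dimmer than it. The number of arrays limits the precision of every value.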

Other observations

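Several microRNAs of the heart share a probe set with another gene and are not members. There were 136 probe sets with several symbols that include a microRNA, 71 of them above the threshold. The one for Vmp1 and Mir21a, a microRNA of fibroblast activation, averaged 6.92 ± 0.03 (SD, n = 3) in wild type, 6.86 ± 0.14 in Col4a3-/- and 6.93 ± 0.08 in Col4a3-/-OPN-/- hearts. The one for Mir27b and Aopep averaged 7.34 ± 0.41, 7.41 ± 0.07 and 7.30 ± 0.18. Their probes cannot tell the microRNA from the other gene, so these values are of the pair. Mir22hg, Mir22 and Tlcd2 together averaged 7.09 ± 0.30, 7.08 ± 0.76 and 7.02 ± 0.07, the Col4a3-/- hearts spreading most.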
